A study of Homo sapiens with 6 samples.

Results

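The antioxidant genes driven by the transcription factor NRF2 were followed in HEK293 cells, a line established from human embryonic kidney, after inhibition of the lipid kinase PI4KA. The 9 genes were taken by symbol from the deposited table of 63140 genes: NQO1, HMOX1, GCLM, GCLC, TXNRD1, SRXN1, OSGIN1, ME1 and FTL. The study compared 3 libraries from cells given 100 nM GSK-A1 for 24 h with 3 libraries from cells given the solvent dimethyl sulfoxide (DMSO). All libraries came from 1 cell line with no genetic change named in the labels, grown in medium with serum, with GSK-A1 added to confluent cells at 1 dose and for 1 time. GSK-A1 blocks the activity of phosphatidylinositol 4-kinase alpha, the product of PI4KA, so the level of the PI4KA transcript is no check of the treatment.

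NRF2, encoded by NFE2L2, is held at a low level by KEAP1, an adaptor that hands it to the CUL3 ubiquitin ligase. When oxidants or electrophiles modify KEAP1, NRF2 accumulates, pairs with a small MAF protein (MAFF, MAFG or MAFK) and binds antioxidant response elements. BACH1 pairs with the same small MAF proteins and represses some of these genes, HMOX1 among them. The targets make glutathione, regenerate thioredoxin, supply NADPH, break down haem and store iron.

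The libraries held 33040178 to 47777233 counts and 24915 to 26382 genes with at least 1 count. The share of counts from 37 mitochondrial genes averaged 5.29% (SD 0.153) in the DMSO group and 4.97% (SD 0.841) in the GSK-A1 group, n = 3 each, and a two-sided exact permutation test gave p = 0.8, where 0.1 is the smallest possible. The lowest share, 4.04%, belonged to GSK-A1 replicate 2, and leaving it out turned the difference of -0.32 percentage points to 0.14. Of 9 transcripts chosen as HEK293 markers, 8 had a mean of at least 1 CPM (counts scaled to library size with TMM factors, for trimmed mean of M), and their summed level was 2078 to 2151 CPM with DMSO and 2221 to 2416 CPM with GSK-A1. VIM and NEFL made up most of that sum. Of the 8 markers tested, VIM and KRT8 rose, and the less abundant PAX2 (-0.43, edgeR adjusted p = 0.0177) and GATA3 (-0.26, edgeR adjusted p = 0.0477) fell. A mean of at least 1 CPM was also reached by 1 of 6 leukocyte markers (LCP1), 2 of 6 fibroblast markers (COL1A1 and COL3A1), 0 of 5 endothelial and 0 of 5 hepatocyte markers. COL1A2, CLDN5 and TTR had no count in any library. The leukocyte sum was 157 to 159 CPM with DMSO and 151 to 164 CPM with GSK-A1. The fibroblast sum was 16.7 to 17.8 CPM with DMSO and 10.3 to 12.7 CPM with GSK-A1. Within it COL3A1 fell from a mean of 9.69 to 5.50 CPM (-0.81, edgeR adjusted p = 3.55e-06). COL1A1 was not called (-0.14, edgeR adjusted p = 0.396). The part of the fibroblast sum in the results below was not tested. Endothelial and hepatocyte sums stayed between 0.166 and 0.506 CPM in both groups.

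All 9 genes passed the count filter. HMOX1 and NQO1 fell with GSK-A1, 0 genes rose, and the other 7 did not pass an adjusted p of 0.05 (edgeR quasi-likelihood test, Benjamini-Hochberg over 16754 genes). The 2 calls are 22.2% of the genes, beside 22.9% of all genes tested (52.3% of those calls were rises, beside 33.3% under upper-quartile factors and 63.9% with the GC trend removed), so the count itself does not set these genes apart. In RNA from whole cultures, fewer cells that express a gene and less of its RNA per cell cannot be told apart. Their median log2 fold change was 0.02, beside -0.01 over all genes. The 3 GSK-A1 libraries lay wholly on one side of the 3 DMSO libraries for HMOX1, NQO1 and TXNRD1, that is 3 of 9 genes beside 40.5% of all genes tested. The labels call the replicates biological without saying whether cultures were separate, so p-values measure the spread between these libraries, which may be technical.

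The genes differed widely in how much they were expressed. Levels were compared per kilobase of merged exons, with lengths from GENCODE release 29. With DMSO, FTL stood highest at 178 ± 5.03 CPM per kilobase (SD, n = 3), above 99.0% of the 16101 tested genes with a known length. TXNRD1 (35.7 ± 1.89 CPM per kilobase) and ME1 (27.4 ± 0.862) followed, both above 90.8% or more of tested genes. HMOX1 (8.34 ± 1.28), GCLM (7.22 ± 0.612) and GCLC (5.69 ± 0.183) lay in the middle, and HMOX1 and GCLM did not differ beyond their spread. Merged exons join all transcripts of a gene, so the order of these genes depends on the length used. Before scaling by length, GCLC stood at 49.2 CPM with DMSO, above GCLM at 39.1 CPM and HMOX1 at 20.1 CPM. SRXN1 (0.421 ± 0.139), NQO1 (0.262 ± 0.0395) and OSGIN1 (0.213 ± 0.0943) lay at the bottom with overlapping spreads, NQO1 above only 10.6% of tested genes. NQO1, often read as the leading marker of NRF2 activity, was therefore measured here from 16 to 39 counts per library.

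**Figure D1:**
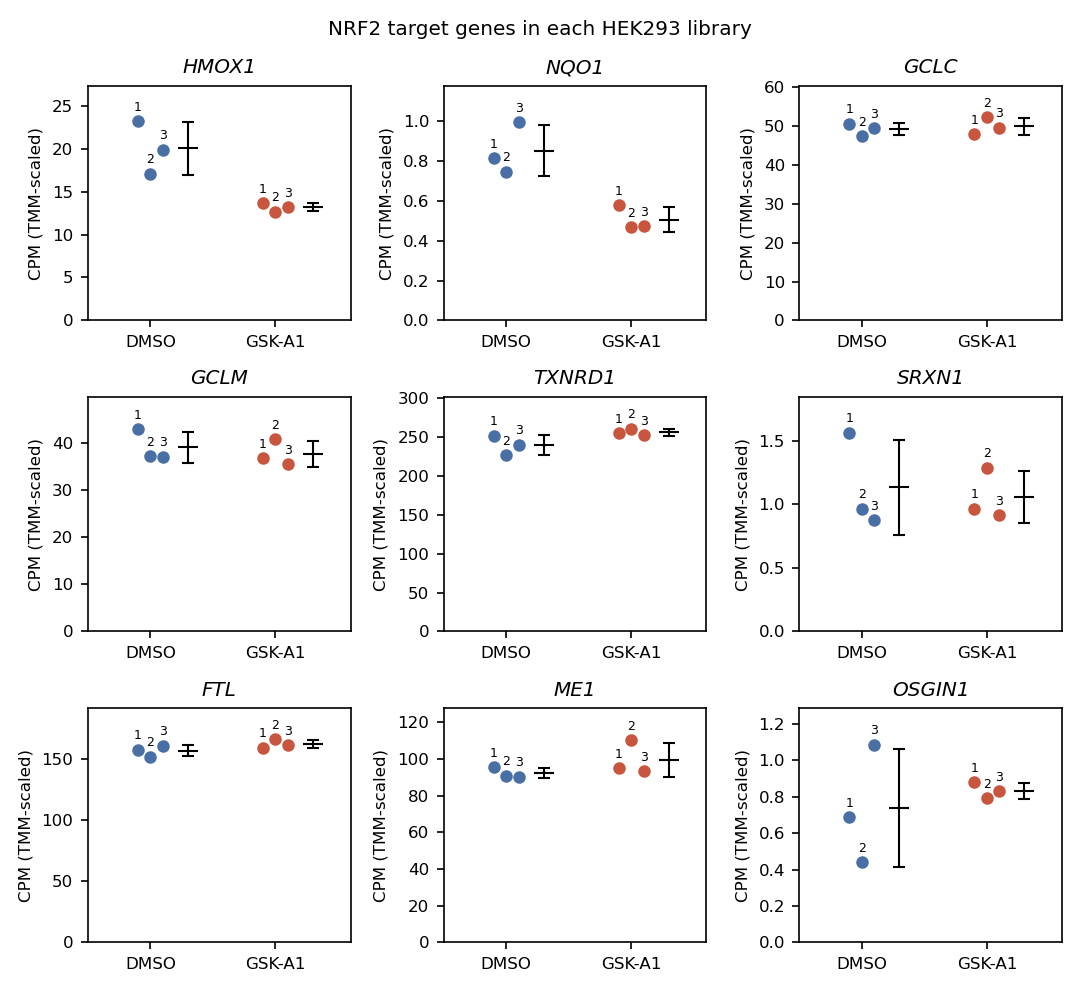
Level of each of the 9 genes in every library, as CPM scaled by TMM factors on a linear axis from 0. Points are libraries with their replicate number, and the bar beside them is the mean ± SD (n = 3). HMOX1 and NQO1 are lower in all 3 GSK-A1 libraries, TXNRD1 is slightly higher in all 3, and the other genes overlap between groups.

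The antioxidant response element has the core TGACNNNGC, which reads GCNNNGTCA on the other strand. Promoter windows from RefSeq (GRCh38.p14, 250 bases before to 50 after each start) were found for 8 of the 9 genes, and 3 of them, GCLM, TXNRD1 and ME1, held the core on either strand. Of all 27305 gene symbols, 16.1% held it in at least 1 window, as did 13.3% of all 35116 windows. Stretches around the core are shown for the genes whose windows match the letters of the response element. Capitals mark the core, and each stretch reads 5′ to 3′ on the strand of the gene.
GCLM, chr1:93909442-93909478, minus strand, core on the opposite strand: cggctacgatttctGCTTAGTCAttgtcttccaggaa
TXNRD1, chr12:104215666-104215702, plus strand, core on the gene's strand: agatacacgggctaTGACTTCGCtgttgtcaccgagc
ME1, chr6:83431166-83431202, minus strand, core on the gene's strand: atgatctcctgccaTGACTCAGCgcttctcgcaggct
The core began 34 bases before the start in GCLM, 99 bases before it in TXNRD1 and 137 bases before it in ME1. The ME1 core overlaps the AP-1 motif TGANTCA, the site of FOS and JUN, and the GCLM and TXNRD1 cores do not. TXNRD1 held a second core at this start and 1 more at another start, and ME1 held a second one after its start. None of these 3 genes was called, and a match is only a description of the letters. No core was found in the windows of NQO1, GCLC, SRXN1, OSGIN1 and FTL, which says nothing of sites outside them.

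HMOX1 (ENSG00000100292, chr22:35380361-35394214, GRCh38, plus strand) encodes haem oxygenase 1, which breaks haem into biliverdin, iron and carbon monoxide. In order of replicate, the DMSO libraries held 23.2, 17.1 and 19.9 CPM and the GSK-A1 libraries 13.6, 12.7 and 13.2 CPM. Every GSK-A1 library lay below every DMSO library, and the DMSO libraries were the more spread, with a mean of 20.1 ± 3.07 CPM against 13.2 ± 0.471 CPM (SD, n = 3). HMOX1 fell by 34.4%, or -0.61 ± 0.10 on the log2 scale (SE; 95% interval -0.82 to -0.40; edgeR adjusted p = 0.000968). It was called in all 17 alternatives, with log2 fold changes from -0.72 to -0.48 and adjusted p from 8.66e-08 to 0.0353. DMSO replicate 1 was the highest library, and the smallest change was found without it.

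NQO1 (ENSG00000181019, chr16:69706996-69726951, minus strand) encodes a quinone reductase that uses NADPH or NADH. It had 39, 34 and 33 counts in DMSO replicates 1 to 3 and 27, 16 and 17 counts in GSK-A1 replicates 1 to 3, or 0.813, 0.747 and 0.996 CPM against 0.579, 0.469 and 0.472 CPM. The groups did not overlap, although all 6 values were near the bottom of what was tested. NQO1 fell by 38.6%, or -0.70 ± 0.23 on the log2 scale (SE; 95% interval -1.18 to -0.22; edgeR adjusted p = 0.0334). The call was lost without any 1 of the 6 libraries (log2 fold change -0.82 to -0.60, edgeR adjusted p 0.0541 to 0.122). DESeq2 gave no adjusted p for a gene this low, and a filter at 1 CPM removed it. An antisense gene (AC092115.2) covers 17.7% of the exon bases of NQO1 and had 0 counts in every library.

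Glutathione synthesis begins with glutamate-cysteine ligase, made of a catalytic subunit, GCLC, and a modifier subunit, GCLM. GCLC (ENSG00000001084, chr6:53497341-53616970) stood at 50.6, 47.5 and 49.5 CPM with DMSO and at 47.996, 52.2 and 49.6 CPM with GSK-A1. GCLM (ENSG00000023909, chr1:93885205-93909456) stood at 42.9, 37.3 and 37.1 CPM and at 36.9, 40.8 and 35.6 CPM. Both genes overlapped between the groups. Their log2 fold changes were 0.02 ± 0.05 (95% interval -0.08 to 0.12; edgeR adjusted p = 0.791) for GCLC and -0.06 ± 0.06 (-0.19 to 0.08; edgeR adjusted p = 0.573) for GCLM. The ratio of GCLM to GCLC counts within a library was 0.848, 0.785 and 0.750 with DMSO and 0.768, 0.781 and 0.717 with GSK-A1. These ratios overlapped, with a log2 difference of -0.07 (two-sided exact permutation test, p = 0.4, smallest possible 0.1).

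TXNRD1 and SRXN1 serve the thioredoxin and peroxiredoxin cycle. TXNRD1 (ENSG00000198431, chr12:104215779-104350305) encodes cytosolic thioredoxin reductase, a selenoprotein that spends NADPH. It stood at 252, 226 and 240 CPM with DMSO and at 255, 260.2 and 252 CPM with GSK-A1, and the lowest GSK-A1 library lay just above the highest DMSO library. The log2 fold change was 0.10 ± 0.04 (95% interval 0.01 to 0.18; edgeR adjusted p = 0.0912). Leaving out GSK-A1 replicate 2 gave a call (0.088, edgeR adjusted p = 0.0372).

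SRXN1 (ENSG00000271303, chr20:646615-653370) encodes sulfiredoxin, which repairs over-oxidised peroxiredoxins. It had 75, 44 and 29 counts with DMSO and 45, 44 and 33 with GSK-A1, or 1.56, 0.967 and 0.875 CPM against 0.966, 1.29 and 0.915 CPM. Values overlapped, and the log2 fold change of -0.16 ± 0.23 (95% interval -0.64 to 0.33; edgeR adjusted p = 0.661) turned to 0.17 without DMSO replicate 1, the highest library. A read-through gene on the same strand (AL121758.1 in GENCODE 29) covers 85.0% of the exon bases of SRXN1 and had 0 counts in every library. How reads shared by both were counted is not given in the sources used here, so the level of SRXN1 may be understated.

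FTL (ENSG00000087086, chr19:48965301-48966878) encodes the light chain of ferritin, the iron store. It stood at 157, 152 and 160.3 CPM with DMSO and at 159, 166 and 161 CPM with GSK-A1, with overlap, and the log2 fold change was 0.05 ± 0.04 (95% interval -0.03 to 0.13; edgeR adjusted p = 0.374). It was called higher once each library's trend on GC content was taken out (0.12, edgeR adjusted p = 0.0374). Of its 50-base stretches, 18.3% also occur in the pseudogene FTLP3, so reads could be split between them. FTH1, the heavy chain, stood at 326 ± 8.86 CPM with DMSO and 309.9 ± 16.7 CPM with GSK-A1 (log2 fold change -0.08 ± 0.04; edgeR adjusted p = 0.189). Of the stretches of FTH1, 40.4% occur in other genes, FTH1P10 above all. BEST1 on the opposite strand covers 62.4% of the exon bases of FTH1, at 6.14 CPM. The ratio of FTL to FTH1 counts was 0.480, 0.453 and 0.506 with DMSO and 0.535, 0.504 and 0.529 with GSK-A1. The ratios overlapped by a small margin, with a log2 difference of 0.13 (two-sided exact permutation test, p = 0.2, smallest possible 0.1).

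ME1 (ENSG00000065833, chr6:83210389-83431071) encodes the cytosolic malic enzyme, which makes NADPH from malate. It stood at 95.6, 90.9 and 90.3 CPM with DMSO and at 95.03, 110.02 and 93.2 CPM with GSK-A1. GSK-A1 replicate 2 alone stood above the DMSO range. The log2 fold change was 0.11 ± 0.06 (95% interval -0.01 to 0.23; edgeR adjusted p = 0.185) and was 0.033 without that library. OSGIN1 (ENSG00000140961, chr16:83948282-83966332) encodes an oxidative-stress-induced growth inhibitor. Its counts were 33, 20 and 36 with DMSO and 41, 27 and 30 with GSK-A1, or 0.688, 0.440 and 1.09 CPM against 0.880, 0.791 and 0.832 CPM. The GSK-A1 values fell inside the DMSO range, and the log2 fold change was 0.25 ± 0.26 (95% interval -0.31 to 0.81; edgeR adjusted p = 0.532). It turned to -0.026 without DMSO replicate 2, the lowest library. A gene on the same strand (AC009119.2) covers 13.9% of its exon bases.

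**Figure D2:**
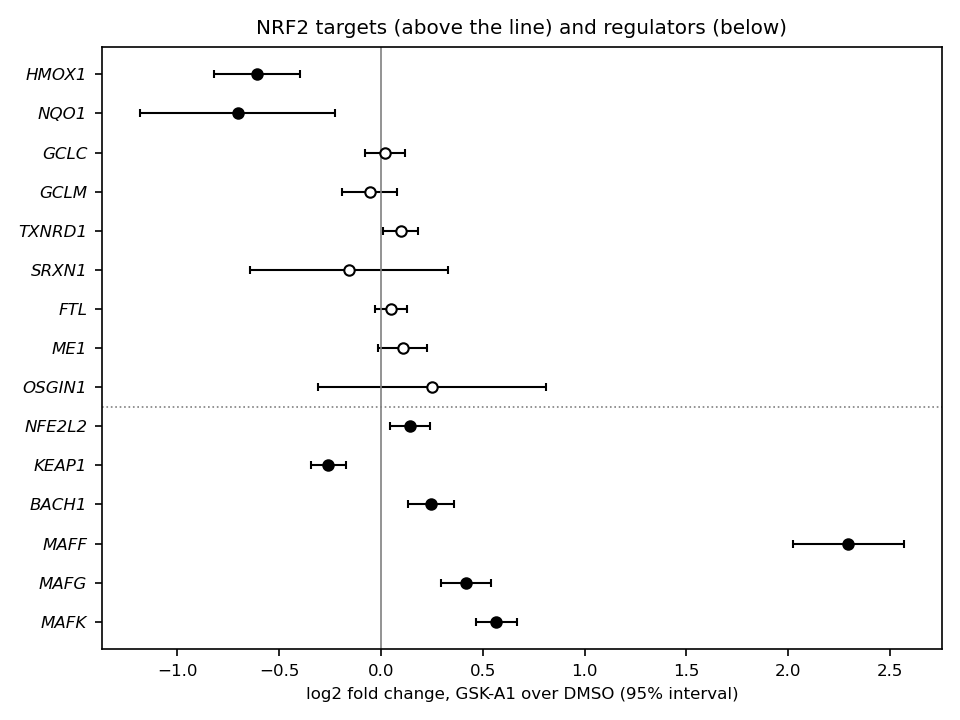
Log2 fold change of GSK-A1 over DMSO with its 95% interval from the edgeR fit (3 libraries per group), for the 9 targets above the dotted line and 6 regulators below it. Filled points have an adjusted p under 0.05. HMOX1 and NQO1 lie left of 0 and the other targets are open points, while MAFF lies at 2.30, MAFK at 0.57, MAFG at 0.42 and KEAP1 at -0.26.

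Among genes for the proteins that sense oxidants and bind the response element, 14 were tested. Of these, 6 rose, beside 12.0% of all genes tested, and 2 fell, beside 10.9%, with a median log2 fold change of 0.08. All 3 small MAF genes rose. MAFF stood at 1.36, 1.10 and 1.51 CPM with DMSO and at 6.01, 7.09 and 6.27 CPM with GSK-A1 (log2 fold change 2.30 ± 0.13; edgeR adjusted p = 3.46e-09). MAFK went from 25.6 ± 0.114 to 38.0 ± 0.893 CPM (0.57 ± 0.05; edgeR adjusted p = 6.31e-07), and MAFG from 60.5 ± 5.55 to 80.8 ± 3.31 CPM (0.42 ± 0.06; edgeR adjusted p = 0.000211). TMEM184A on the opposite strand covers 18.2% of the exon bases of MAFK, at 1.34 CPM.

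NFE2L2, which encodes NRF2 itself, stood at 57.6, 56.8 and 54.7 CPM with DMSO and at 60.4, 66.2 and 60.3 CPM with GSK-A1. It rose by 0.14 ± 0.05 on the log2 scale (edgeR adjusted p = 0.0365). That call was lost without DMSO replicate 1, 2 or 3 (0.16, 0.15 and 0.12, edgeR adjusted p 0.0783, 0.107 and 0.164), under upper-quartile factors and with library totals only. An overlapping gene on the same strand covers 17.6% of its exon bases and was counted at 4.65 CPM. KEAP1, the repressor of NRF2, stood at 81.6, 76.4 and 79.5 CPM with DMSO and at 67.5, 66.1 and 65.0 CPM with GSK-A1. It fell by 0.26 on the log2 scale, with an SE of 0.04 (edgeR adjusted p = 0.000414). BACH1, the repressor that competes with NRF2, stood at 48.2, 47.3 and 43.8 CPM with DMSO and at 54.3, 59.2 and 52.1 CPM with GSK-A1 (0.25 ± 0.05; edgeR adjusted p = 0.00346).

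The remaining 2 calls in this list were chosen for naming after their values were seen. BACH2, a relative of BACH1, rose by 0.22 ± 0.05 on the log2 scale (edgeR adjusted p = 0.00543). SQSTM1, an autophagy receptor that binds KEAP1 and is itself an NRF2 target, changed by -0.12 ± 0.04 (edgeR adjusted p = 0.0302). Its call was lost without DMSO replicate 1, 2 or 3 or GSK-A1 replicate 1 (edgeR adjusted p 0.0593 to 0.157), with no count filter (0.0676) and when the GC trend was removed (-0.041, edgeR adjusted p = 0.480). MRNIP on the opposite strand covers 20.7% of its exon bases, at 34.7 CPM. The other 6 genes were not called, among them CUL3 and RBX1 of the ubiquitin ligase, at 0.07 and -0.05 on the log2 scale. BTRC, GSK3B, DPP3 and NFE2L1 lay between -0.03 and 0.10.

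**Figure D3:**
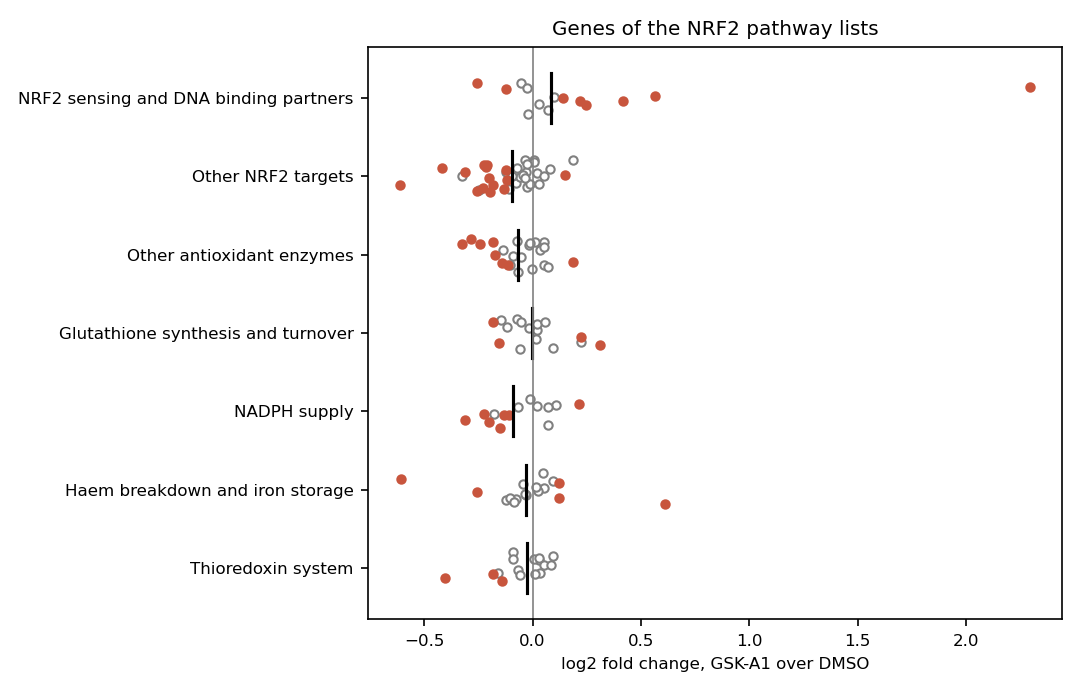
Log2 fold change of GSK-A1 over DMSO for each tested gene in 7 lists of the NRF2 pathway. Filled points have an edgeR adjusted p under 0.05, the black bar is the median of the list, and vertical scatter has no meaning. Among other NRF2 targets 14 filled points lie below 0 and 1 above it, and MAFF is the point at 2.30.

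A wider list of NRF2 targets, outside the 9 genes, held 37 tested genes of 48. Of these, 14 fell (37.8%, beside 10.9% of all genes tested) and 1 rose (2.703%, beside 12.0%), and the median log2 fold change was -0.10. The median was -0.047 with the GC trend removed and -0.14 under upper-quartile factors, where the median over all genes was -0.05. PIR, an iron-binding nuclear protein, went from 10.8 ± 0.314 to 7.06 ± 0.694 CPM (-0.61 ± 0.08; edgeR adjusted p = 6.97e-05). IDH1, which makes cytosolic NADPH from isocitrate, went from 72.4 ± 0.781 to 58.3 ± 3.79 CPM (-0.31 ± 0.05; edgeR adjusted p = 0.000224). AKR1B1, aldose reductase, went from 87.4 ± 1.97 to 74.6 ± 1.31 CPM (-0.23 ± 0.04; edgeR adjusted p = 0.000713). GSTP1, a glutathione transferase, went from 339 ± 5.30 to 296 ± 6.54 CPM (-0.20 ± 0.03; edgeR adjusted p = 0.000707), a call that was lost on GC trend removal (-0.095, edgeR adjusted p = 0.133). All SDs are over n = 3 libraries. Without DMSO replicate 1 the list had 9 calls in place of 15. With DMSO, 30 of the 37 genes averaged at least 10 CPM. The shares over all genes tested were not matched for level, for this list or the others. This list was also written with earlier results of these data known.

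Of the 14 targets that fell, 11 had a promoter window and 6 of these held the core TGACNNNGC. Over the whole tested list 28 genes had a window and 10 of these held the core, beside 16.1% of all gene symbols. That share also covers genes that were not tested here, while the list was chosen as NRF2 targets. The shares are therefore not like for like, and their difference was not tested. The cores of GSTP1 and IDH1 are shown because both are named genes that fell and hold the core before their start.
GSTP1, chr11:67583732-67583768, plus strand, core on the gene's strand: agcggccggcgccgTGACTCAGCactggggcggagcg
IDH1, chr2:208255192-208255228, minus strand, core on the gene's strand: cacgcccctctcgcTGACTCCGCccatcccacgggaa
The GSTP1 core has the same 9 letters as that of ME1 and also overlaps TGANTCA, while ME1 stood at 0.11 and GSTP1 at -0.20 on the log2 scale. GSTP1 was called and ME1 was not, and the GSTP1 call was lost on GC trend removal (-0.095, edgeR adjusted p = 0.133). Any part of these letters in either value was not tested.

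NADPH, the reductant that TXNRD1 and NQO1 spend, is supplied by dehydrogenases and by enzymes that work with them. Of 14 genes tested in this list, which holds ME1 and also NAD kinases, a transhydrogenase and a lactonase, 6 fell, beside 10.9% of all genes, and 1 rose, beside 12.0%, with a median log2 fold change of -0.09. Besides IDH1, the mitochondrial isocitrate dehydrogenase IDH2 went from 76.2 ± 5.73 to 65.4 ± 1.64 CPM (-0.22 ± 0.05; edgeR adjusted p = 0.00504). Its call was lost on GC trend removal (-0.15, edgeR adjusted p = 0.0501). MTHFD2, a mitochondrial folate enzyme, rose from 272 ± 7.23 to 316 ± 17.3 CPM (0.21 ± 0.04; edgeR adjusted p = 0.00141), with SLC4A5 on the opposite strand over 27.2% of its exon bases at 0.545 CPM. The 7 calls became 4 without DMSO replicate 1 or 2 or GSK-A1 replicate 1, and likewise 4 on removal of the GC trend.

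Glutathione synthesis and turnover, with 16 tested genes including GCLC and GCLM, had 2 rises (12.5%, beside 12.0% of all genes tested) and 2 falls (12.5%, beside 10.9%), with a median of -0.0012. Both shares are near those over all genes. CTH, which makes cysteine from cystathionine, rose from 20.0 ± 1.11 to 24.8 ± 2.07 CPM (0.31 ± 0.07; edgeR adjusted p = 0.00293). SLC7A11, the cystine importer, fell from 75.4 ± 4.06 to 66.6 ± 2.92 CPM (-0.18 ± 0.05; edgeR adjusted p = 0.0130), a call lost without DMSO replicate 1 or 3 or GSK-A1 replicate 1 (edgeR adjusted p 0.0646 to 0.0966). SLC1A4, a neutral amino acid carrier, stood higher by 0.22 ± 0.07 (edgeR adjusted p = 0.0299) and LAP3, a leucine aminopeptidase, lower, at -0.15 ± 0.05 (edgeR adjusted p = 0.0436). SLC1A4 was lost without DMSO replicate 1 or 3 or GSK-A1 replicate 1 (edgeR adjusted p 0.0789 to 0.180), and LAP3 without any library but GSK-A1 replicate 2 (0.0920 to 0.188), as well as under RLE factors, DESeq2 and GC trend removal. The 4 calls became 1 without DMSO replicate 1 or 3 or GSK-A1 replicate 1, and leaving out GSK-A1 replicate 2 raised them to 8.

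Haem breakdown and iron handling, with 17 tested genes including HMOX1 and FTL, had 3 rises (17.6%, beside 12.0% of all genes tested) and 2 falls (11.8%, beside 10.9%), with a median of -0.03. HMOX1 is among the falls, and without HMOX1 and FTL the list had 3 rises and 1 fall in 15 tested genes. TFRC, the transferrin receptor that imports iron, stood at 159, 145 and 148 CPM with DMSO and at 227, 245 and 221 CPM with GSK-A1. It rose by 0.61 ± 0.05 on the log2 scale (edgeR adjusted p = 1.67e-07). SLC48A1, a haem transporter, fell from 27.8 ± 1.02 to 23.3 ± 0.742 CPM (-0.25 ± 0.05; edgeR adjusted p = 0.00265). NCOA4, the receptor that delivers ferritin to autophagy, rose by 0.12 ± 0.04 (edgeR adjusted p = 0.0329), and IREB2, an iron sensor named after its value was seen, rose by 0.12 ± 0.04 (edgeR adjusted p = 0.0445). NCOA4 was lost without DMSO replicate 1, 2 or 3 (edgeR adjusted p 0.0807 to 0.152) and IREB2 without these or GSK-A1 replicate 1 (0.0872 to 0.173). Both were also lost under upper-quartile factors and with library totals only, and IREB2 under limma-voom and GC trend removal. The 5 calls became 3 without any 1 of the DMSO replicates.

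The thioredoxin system, with 16 tested genes including TXNRD1 and SRXN1, had 0 rises, beside 12.0% of all genes tested, and 3 falls (18.8%, beside 10.9%), with a median of -0.03. PRDX2, a cytosolic peroxiredoxin, went from 599.8 ± 10.2 to 529 ± 16.3 CPM (-0.18 ± 0.03; edgeR adjusted p = 0.00127), with an antisense gene over 14.1% of its exon bases at 0.0504 CPM. TXNIP, which binds and inhibits thioredoxin, went from 37.2 ± 5.18 to 28.2 ± 2.37 CPM (-0.40 ± 0.10; edgeR adjusted p = 0.0262). TXN2, mitochondrial thioredoxin, stood at -0.14 ± 0.04 (edgeR adjusted p = 0.0255). TXNIP was lost without DMSO replicate 3 or any GSK-A1 replicate (edgeR adjusted p 0.0584 to 0.112) and with no count filter (0.166). TXN2 lost its call without DMSO replicate 1 or 2 or GSK-A1 replicate 1 (edgeR adjusted p 0.0921 to 0.139) and on removal of the GC trend (0.208). Without GSK-A1 replicate 1 the list had 1 call, and under upper-quartile factors it had 6.

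Antioxidant enzymes not counted as classical NRF2 targets held 23 tested genes of 27, of which 7 fell (30.4%, beside 10.9% of all genes tested) and 1 rose (4.35%, beside 12.0%), with a median of -0.07. Besides PRDX2, the methionine sulfoxide reductases MSRB1 (-0.33 ± 0.07; edgeR adjusted p = 0.00449) and MSRB2 (-0.28 ± 0.07; edgeR adjusted p = 0.00540) fell. MSRB2 was lost without GSK-A1 replicate 1 (edgeR adjusted p = 0.0533). GLRX3, a monothiol glutaredoxin, rose from 124 ± 0.416 to 141 ± 5.44 CPM (0.19 ± 0.04; edgeR adjusted p = 0.00250). The 8 calls became 4 without DMSO replicate 1 or 2 and 3 without GSK-A1 replicate 1. Falls in this list were 30.4% of tested genes and those among other NRF2 targets 37.8%, and the difference between these shares was not tested.

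Genes with a profile like that of NQO1, the called target with the largest change, were looked up over the 6 libraries. Likeness was the root mean square difference of log2 CPM (prior count 2), each gene centred on its DMSO mean, among tested genes with a mean of at least 5 CPM. The closest were DERL3 (0.110), SLC8A1 (0.131) and LINC01547 (0.138), with log2 fold changes of -0.64, -0.62 and -0.75. For HMOX1, added after its values were seen, they were DNAJC30 (0.0979), DERL3 (0.108) and the unnamed gene ENSG00000290931 (0.113). SMARCB1 on the opposite strand covers 77.0% of the exon bases of DERL3 at 113 CPM, and BUD23 covers 14.5% of those of DNAJC30 at 75.4 CPM.

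**Figure D4:**
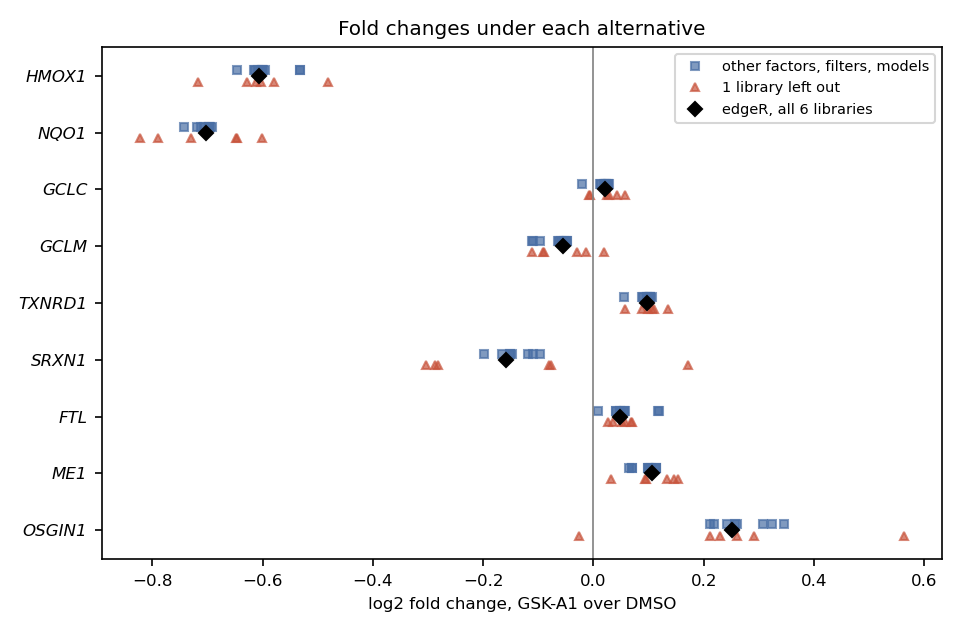
Log2 fold change of GSK-A1 over DMSO for each of the 9 genes in the edgeR fit of all 6 libraries (diamonds), under other library factors, filters and models (squares) and with 1 library left out (triangles). HMOX1 and NQO1 stay left of 0 in every fit shown, TXNRD1, FTL and ME1 stay right of 0, and GCLC, GCLM, SRXN1 and OSGIN1 cross it.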

How the data were processed

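RNA from HEK293 cells was sequenced as 6 libraries on a HiSeq instrument after a stranded library kit, per the labels' protocols. The deposited table holds raw counts per gene with no normalization, 1 column per library. Per the submitters' processing notes the build was GRCh38.p13 and the tools were cutadapt 5.1, STAR 2.7.11b, featureCounts, Subread 2.1.1 and DESeq2 1.38.0. The strand setting, annotation release and filters are not given in the sources used here.

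The test was that of edgeR 4.0.16 (R 4.3.3). Genes passing filterByExpr (smallest count 10, smallest total 15), 16754 of 63140, were scaled by TMM and fitted on group alone with the robust quasi-likelihood F test, and adjusted by Benjamini-Hochberg over all of them. A call is an adjusted p under 0.05. The SE is the unshrunken coefficient over the square root of F, and 95% intervals use the t quantile of the fitted degrees of freedom. Fold changes are log2 of GSK-A1 over DMSO. GENCODE 29 (GRCh38), not known to be the release used for counting, gave coordinates, merged exons, GC content (known for 96.1% of tested genes) and shared 50-base stretches. Some of the genes antisense to or overlapping a named gene are given, though not all, because the strand setting is unknown. The code was tested on simulated counts.

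Genes named are the 9 targets, 6 regulators, up to 4 called genes per list with the smallest p, and the 3 most alike in profile to the called target with the largest change. One gene that this rule names is not reported here. The targets, lists and tests were chosen with earlier results of these data known. Alternatives were other factors and filters, DESeq2 1.42.0, limma-voom (limma 3.58.1), GC trend removal (loess, span 0.3), a replicate block, a threshold of 0.01 and leaving out each library.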

Additional observations from a re-analysis of the deposited data

How the results depend on the processing

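The HMOX1 call held in all 17 alternatives, and the NQO1 call in 8 of the 15 that gave it an adjusted p. At an adjusted p under 0.01, NQO1 (-0.70, edgeR adjusted p = 0.0334) was not called, 1 of the 9 genes was, and the count over all genes fell from 3835 to 1871. With 1 library left out, the 9 genes had 1 to 2 calls and all genes 2163 (without DMSO replicate 1) to 4890 (without GSK-A1 replicate 2). The 9 genes had 1 call under DESeq2 and under a filter of 1 CPM in 3 libraries, where NQO1, SRXN1 and OSGIN1 had no value, and 4 with a replicate block and the GC trend removed. In that fit TXNRD1 (0.10, edgeR adjusted p = 0.0353) and FTL (0.12, edgeR adjusted p = 0.0366) were called higher, and FTL was so with the GC trend removed alone (0.12, edgeR adjusted p = 0.0374). GCLC turned to -0.020 under upper-quartile factors.

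With 1 library left out the log2 fold changes of the 9 genes ranged from -0.82 to -0.60 (NQO1), -0.72 to -0.48 (HMOX1), -0.11 to 0.019 (GCLM, above 0 without DMSO replicate 1), -0.0086 to 0.057 (GCLC, below 0 without DMSO replicate 2, at -0.0053, or GSK-A1 replicate 2), 0.057 to 0.13 (TXNRD1), -0.30 to 0.17 (SRXN1), -0.026 to 0.56 (OSGIN1), 0.033 to 0.15 (ME1) and 0.026 to 0.069 (FTL). The GCLM to GCLC difference ranged from -0.11 to -0.024, that of FTL to FTH1 from 0.085 to 0.16 and that of the mitochondrial share from -0.67 to 0.14 percentage points.

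Among the lists, counts of calls with 1 library left out ranged from 9 to 17 for other NRF2 targets, 3 to 9 for other antioxidant enzymes, 1 to 8 for glutathione, 4 to 8 for NADPH, 3 to 7 for haem and iron, 1 to 4 for thioredoxin and 6 to 8 for the partners. At an adjusted p under 0.01 other antioxidant enzymes and NADPH had 4 calls each, haem and iron 3, glutathione 1 and thioredoxin 1. NADPH had 4 with the GC trend removed, haem and iron 3 with library totals only, and thioredoxin 6 under upper-quartile factors and 5 with the replicate block and GC trend removed. Medians under upper-quartile factors were -0.14 (other targets), -0.11 (other antioxidant enzymes), -0.042 (glutathione) and -0.072 (haem and iron). With the GC trend removed they were -0.047, -0.024 and 0.018 for other targets, other antioxidant enzymes and haem and iron, and with the block as well -0.046, -0.024 and 0.018. With 1 library left out they ranged from -0.10 to -0.073 for other targets, -0.081 to -0.049 for other antioxidant enzymes, -0.035 to 0.0089 for glutathione and -0.031 to 0.013 for haem and iron. The cause of these shifts was not tested.

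The sample titles number the replicates without saying whether same-numbered libraries were paired. Deviations of same-numbered libraries from their group means correlated at 0.011, 0.019 and 0.032. Those of different-numbered libraries correlated at -0.033 to 0.012, the highest being GSK-A1 replicate 1 with DMSO replicate 2. The replicate block alone gave 4127 calls over all genes, beside 3835 without it, and 2 of the 9. With the block HMOX1 had an edgeR adjusted p of 6.23e-06, beside 0.000968 without it. Of the 6 regulators and 20 list genes named by the rule (26 in all), 15 kept their direction and call in all alternatives that gave a value, and 0 reversed. Depth limits NQO1, SRXN1 and OSGIN1, which had 16 to 75 counts per library.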
